A study of Mus musculus with 11 samples.

Results

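The matrix metalloproteinases (MMPs) and their tissue inhibitors (TIMPs) were examined in periostin-lineage stromal cells of the naive mouse mammary gland. The 10 members, Timp1, Timp2, Timp3, Timp4, Mmp2, Mmp3, Mmp9, Mmp11, Mmp14 and Mmp23, were taken by name from a table of 19965 endogenous probes, 1 probe each. The mice carried a lineage reporter, ZSGreen, which marks cells that express periostin or once did. It does not separate the 2 states. Sections of fixed frozen gland from 3 mice were hybridised with GeoMx probes, and the ZSGreen+ cells of each chosen region were collected as a single pool. Of the regions analysed here, 6 were Pdpn-adjacent, beside lymphatic vessels stained for podoplanin, and 5 were SMA-adjacent, beside ducts and blood vessels stained for smooth muscle actin. No treatment is given, and the labels give neither the age of the mice nor the allele that drives the reporter. They do not tie regions to mice. Each group holds more regions than the study has mice, so some regions share a mouse and p-values over regions are too small.

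MMPs are zinc-dependent proteases that cut collagens, elastin, fibronectin and other matrix proteins, mostly after they are made as inactive precursors. TIMPs bind the active site of MMPs and block it. TIMP2 has a further role: held by the membrane protease MMP14 at the cell surface, it docks the precursor of MMP2 there so that a neighbouring MMP14 can activate it. In the mammary gland the balance of MMPs and TIMPs is known to shape duct branching and the tissue's regression after lactation.

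Depth set how much each region could show. Total endogenous counts ran from 22757 to 2271664 in the 6 Pdpn-adjacent regions and from 760761 to 3086323 in the 5 SMA-adjacent regions. Pdpn-adjacent regions 2, 3 and 11 held under 100000 counts each, and there 1 count equals 37.5, 12.3 and 34.3 CPM. CPM is the count scaled to a common library size, with library sizes adjusted by trimmed means. The lowest value in the table is 1, at which 9 of the 10 members stood in region 2, 3 in region 3 and 6 in region 11. In the other 8 regions no member stood at 1. Acta2, which encodes smooth muscle actin, followed the labels, at 141 ± 111 CPM beside lymphatic vessels (SD, n = 6) and 1098 ± 896 CPM beside SMA (SD, n = 5). Pdpn transcript lay near background, with medians of 0.985 times the negative-control probes in the Pdpn-adjacent group and 1.65 times in the SMA-adjacent group. Postn, the periostin gene, lay at 1.52 times in the Pdpn-adjacent group and 2.09 times in the SMA-adjacent group. These genes were used to choose regions or cells, so they serve here as checks of the labels and not as results.

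Timp2, Timp3 and Mmp2 were measured above background most widely, and the other members lay close to it. A value was counted as above the floor when it exceeded the mean plus 2 SD of the region's 210 negative-control probes on the log2 scale. Timp3 was above the floor in 10 of 11 regions, Mmp2 in 9, Timp2 in 7 and Timp4 in 4. Mmp3 was above it in 3 regions, Mmp9 and Mmp14 in 1 each, and Timp1, Mmp11 and Mmp23 in 0. Over all probes tested, 13.6% were above the floor in at least 4 regions, against 4 of the 10 members. In regions 2 and 11 a count of 2 suffices to pass. The values of Timp2, Timp3, Mmp2 and Mmp9 above the floor in region 11 and that of Timp3 in region 2 are of that kind. Because probes bind with different efficiency, these levels order regions for a gene and do not order genes by abundance.

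**Figure D1:**
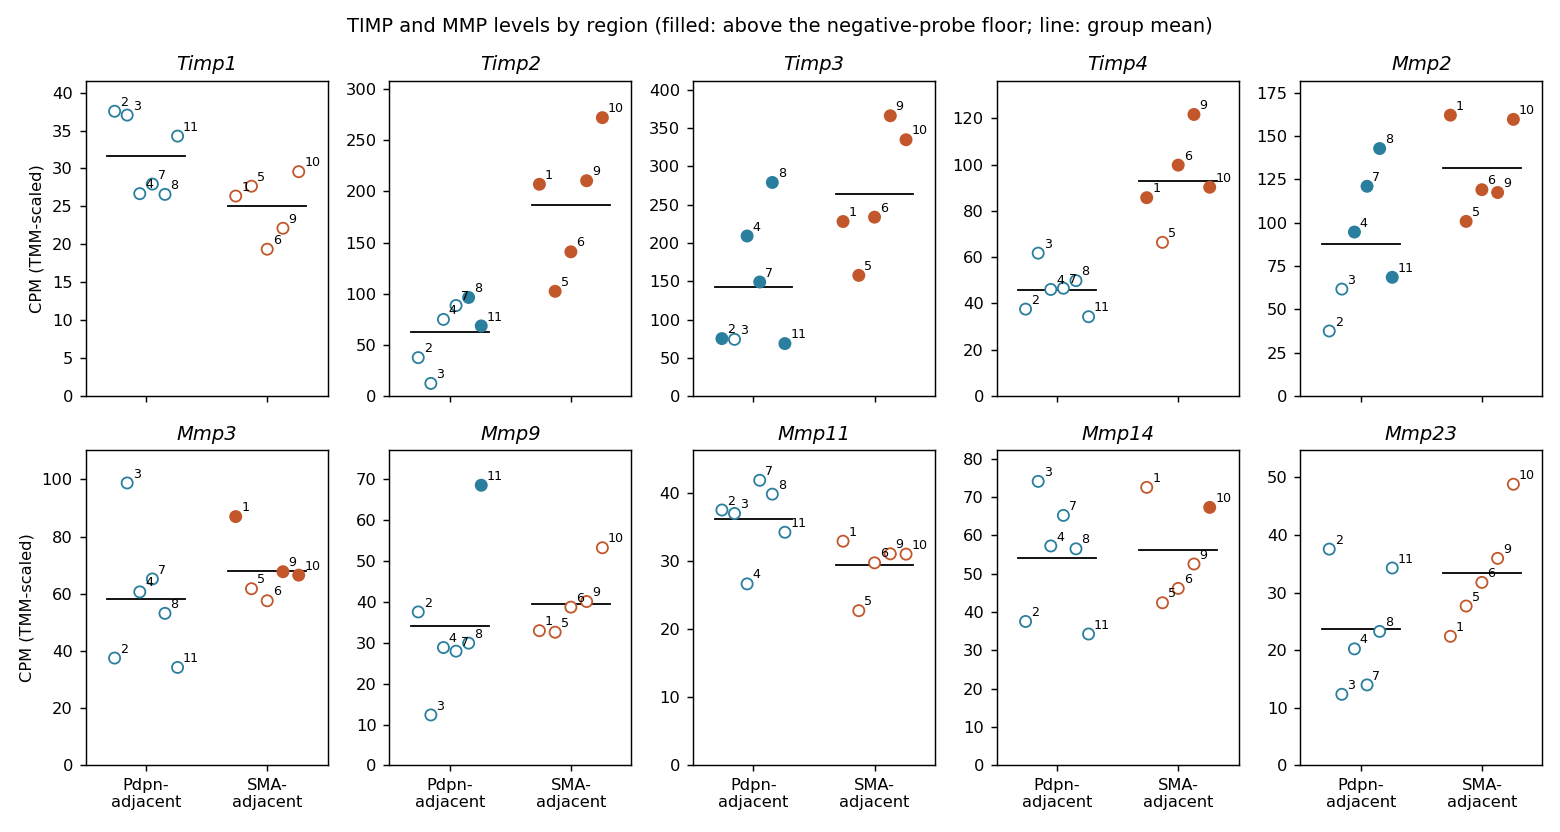
Level of each of the 10 members in CPM (vertical axes, from 0) in the 6 Pdpn-adjacent and 5 SMA-adjacent regions, numbered as labelled. Points are filled where the count exceeded the negative-probe floor, and lines are group means. For Timp2 and Timp4 the 6 Pdpn-adjacent regions lie below the 5 SMA-adjacent ones.

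Among the inhibitors, Timp2 and Timp4 were low in Pdpn-adjacent regions, and Timp3 less clearly so. Timp2 had 37.5, 12.3, 74.9, 88.5, 96.3 and 68.5 CPM in Pdpn-adjacent regions 2, 3, 4, 7, 8 and 11, against 207, 102, 141, 210 and 272 CPM in SMA-adjacent regions 1, 5, 6, 9 and 10. Every Pdpn-adjacent region was lower than every SMA-adjacent one, with region 8 nearest to region 5. The means were 63.0 ± 32.1 CPM in the Pdpn-adjacent group (SD, n = 6) and 187 ± 66.1 CPM in the SMA-adjacent group (SD, n = 5). Relative to the negative probes of the same region, Timp2 spanned 0.375 to 3.71 times background in the Pdpn-adjacent group and 3.00 to 9.33 times in the SMA-adjacent group, so on this scale the groups overlapped.

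Timp4, an inhibitor with a narrower tissue range than the others, followed the same order. It had 37.5, 61.7, 46.0, 46.6, 49.8 and 34.3 CPM in Pdpn-adjacent regions 2, 3, 4, 7, 8 and 11, against 85.7, 66.4, 99.7, 122 and 90.2 CPM in SMA-adjacent regions 1, 5, 6, 9 and 10. The groups did not overlap, although region 3 came within a single count of region 5. The means were 46.0 ± 9.71 CPM in the Pdpn-adjacent group (SD, n = 6) and 92.7 ± 20.2 CPM in the SMA-adjacent group (SD, n = 5). On the background scale Timp4 spanned 0.889 to 1.92 times in the Pdpn-adjacent group and 1.94 to 4.08 times in the SMA-adjacent group, again without overlap, as did 0.446% of all probes tested in this direction. It was above the floor in 0 of 6 Pdpn-adjacent and 4 of 5 SMA-adjacent regions, so its level beside lymphatic vessels was not measurable above background at this depth.

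Of all probes tested, 0.391% had every Pdpn-adjacent region below every SMA-adjacent one in CPM, and 0.446% every one above. Of the 10 members these were 2 and 0. The quasi-likelihood test of edgeR, fitted over 19935 probes with Benjamini-Hochberg adjustment, gave Timp2 a log2 fold change of -1.33 ± 0.33 SE (adjusted p = 0.180) and Timp4 -0.97 ± 0.21 SE (adjusted p = 0.0934), neither past 0.05. As Timp4 was not above the floor in any Pdpn-adjacent region, its fold includes background in both groups. With background subtracted in the 8 regions above 100000 counts it was -2.23 (adjusted p = 0.251 by edgeR), and that of Timp2 was -1.56 (adjusted p = 0.685 by edgeR). edgeR called 0.0100% of probes, 2 higher and 0 lower in Pdpn-adjacent regions, and 0 of the 10 members. At an unadjusted p under 0.05 it gave 6.03% of probes, with 636 lower (3.19%) and 566 higher (2.84%), and Timp2, Timp4, Mmp9 and Mmp23 were among the lower ones. DESeq2 called both Timp2 (-1.37 ± 0.35 SE, adjusted p = 0.0196) and Timp4 (-0.97 ± 0.26 SE, adjusted p = 0.0383) lower. It gave an adjusted p to 2927 probes, 4 members among them, and called 0.581% of those, 0.547% lower and 0.0342% higher. limma-voom called 0 probes. The DESeq2 call of Timp2 was lost when any of Pdpn-adjacent regions 3 and 4 or SMA-adjacent regions 1, 9 and 10 was left out, with the adjusted p between 0.0554 and 0.869. That of Timp4 was kept without SMA-adjacent region 5, had no adjusted p without region 7, and was lost in the other 9 such fits, at 0.0554 or above. Without region 9 or 10, DESeq2 left 6 or 7 probes without an adjusted p, against 17008 with all regions. It adjusted over far more probes there, so the adjusted p of those fits cannot be compared with the rest. Timp2 had -1.32 ± 0.37 SE by DESeq2 without region 9 and -1.18 ± 0.34 SE without region 10. The exact two-sided permutation test of mean log2 CPM gave p = 0.00433 for each of Timp2 and Timp4, the smallest that 6 regions against 5 allow, and 0.490 for both once adjusted over all probes. With mice shared between regions, the p-values of all of these tests are too small.

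Both differences were also seen in the 8 deeper regions. Without regions 2, 3 and 11 Timp2 had a log2 fold change of -1.13 ± 0.32 SE (adjusted p = 0.567 by edgeR) and Timp4 -0.98 ± 0.24 SE (adjusted p = 0.238 by edgeR). DESeq2 then called Timp4 (adjusted p = 0.0495) and not Timp2 (adjusted p = 0.146), with 17 probes called in all, 9 of them lower. The 3 deep Pdpn-adjacent regions held 86.6 ± 10.9 CPM of Timp2 and 47.5 ± 2.06 CPM of Timp4 (SD, n = 3), below each SMA-adjacent region, a pattern shared by 2.02% of probes, while 2.39% had these 3 regions above. The 3 shallow regions carry little weight by themselves. Taken as observed, the single Timp2 count of region 2 has an exact Poisson interval (95%, counting error only) of 0.950 to 209 CPM. That interval takes in the levels of 3 of the 5 SMA-adjacent regions. The interval of the single count in region 3 is 0.313 to 68.8 CPM. A value of 1 is the lowest in these data and may stand for no count. The upper bounds would then be lower. Without SMA-adjacent region 5, edgeR called both genes (adjusted p = 0.0351 for Timp2 and 0.0137 for Timp4). They were then among 53 of 19820 probes called, 41 of them lower, against 2 called with all regions. With some regions from the same mouse, these p-values are too small.

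Region 5 was the lowest SMA-adjacent region for 7 of the 10 members, and the share over all probes was not counted. Region 5 also had the fewest probes above the floor of the SMA-adjacent regions, 1754 against 2431 to 3838 in the others. Within the SMA-adjacent group, Timp2 varied by 2.66 times between its lowest and highest region and Timp3 by 2.32 times. Mmp23, at background, varied by 2.18 times and Timp4 by 1.83 times, and the other 6 members by 1.45 times (Mmp11) to 1.71 times (Mmp14). The labels do not say which SMA-adjacent regions lay at a duct and which at a blood vessel.

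Timp3, the inhibitor that binds to the matrix itself, was the member furthest above background. It had 75.1, 74.1, 209, 149, 279 and 68.5 CPM in Pdpn-adjacent regions 2, 3, 4, 7, 8 and 11, against 228, 158, 234, 366 and 335 CPM in SMA-adjacent regions 1, 5, 6, 9 and 10. The groups overlapped: regions 4 and 8 were higher than SMA-adjacent region 5, and region 8 was also higher than regions 1 and 6. Its level was 142 ± 87.0 CPM in the Pdpn-adjacent group (SD, n = 6) and 264 ± 85.1 CPM in the SMA-adjacent group (SD, n = 5), with a log2 fold change of -0.65 ± 0.37 SE (adjusted p = 0.920 by edgeR). Without regions 2, 3 and 11 that value was -0.31 ± 0.35 SE, less than its error. The p-values here are too small, since regions share mice.

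Timp1, which is induced by inflammation and injury in many tissues, was not detectable above background. It had 6 to 62 counts in Pdpn-adjacent regions 4, 7 and 8, or 0.808 to 1.02 times the negative probes. The SMA-adjacent regions had 20 to 90 counts, or 0.607 to 1.01 times. Its log2 fold change was 0.15 ± 0.19 SE (adjusted p = 1.00 by edgeR), and that p is too small for the same reason of shared mice. In the mouse Timp1, Timp3 and Timp4 each lie inside a synapsin gene, Syn1, Syn3 and Syn2, by the RefSeq spans. None of the 3 synapsin probes was above the floor in 4 or more regions and 0 were called. Syn1 (-0.22 ± 0.19 SE) and Syn3 (0.10 ± 0.16 SE; adjusted p = 0.985 and 1.00 by edgeR) had the smallest p of these. The host probes thus stayed near background also in the SMA-adjacent regions, where Timp3 was above the floor in 5 of 5 and Timp4 in 4 of 5.

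The start sites of Timp2 and Timp4, whose levels were both low in Pdpn-adjacent regions, and of Timp3, whose was less so, are shown for comparison. Each line gives the 250 bases before the annotated start, from RefSeq on GRCm38.p6, 5′ to 3′ on the gene's strand. Capitals mark matches on either strand to the GC box GGGCGG, a site bound by Sp1 and related factors.
Timp2, chr11:118355412-118355661, minus strand: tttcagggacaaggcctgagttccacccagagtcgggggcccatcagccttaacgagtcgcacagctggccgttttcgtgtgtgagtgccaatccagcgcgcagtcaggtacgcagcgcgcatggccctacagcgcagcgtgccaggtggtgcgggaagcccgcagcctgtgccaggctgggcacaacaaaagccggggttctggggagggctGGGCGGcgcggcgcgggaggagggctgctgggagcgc
Timp4, chr6:115252206-115252455, minus strand: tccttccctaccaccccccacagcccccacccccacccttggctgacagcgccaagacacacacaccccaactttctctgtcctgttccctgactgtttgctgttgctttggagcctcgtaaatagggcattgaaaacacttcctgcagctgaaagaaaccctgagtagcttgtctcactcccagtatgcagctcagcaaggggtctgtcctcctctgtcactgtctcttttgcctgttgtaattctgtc
Timp3, chr10:86300162-86300411, plus strand: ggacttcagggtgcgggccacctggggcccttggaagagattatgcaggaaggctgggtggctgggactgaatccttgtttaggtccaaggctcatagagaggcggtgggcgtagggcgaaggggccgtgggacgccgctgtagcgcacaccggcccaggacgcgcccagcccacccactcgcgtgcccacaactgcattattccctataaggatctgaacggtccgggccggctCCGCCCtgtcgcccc
The windows differ in composition, with a GC content of 68.0% for Timp2, 65.6% for Timp3 and 53.6% for Timp4, against a median of 52.4% over 32851 RefSeq windows of this length. Timp2 has a GC box 31 bases and Timp3 one 9 bases before the start, and Timp4 has none in this window. GGGCGG occurs in 32.7% of all such windows. The AP-1 motif TGANTCA (6.75% of windows), the TATA box TATAAA (12.4%) and the CArG box (1.47%) were found in none of these windows of Timp2, Timp3 and Timp4. Of the other members with a window, Mmp3 had an AP-1 match 39 bases and a TATA box 1 base before its start. In all, 8 of the 10 members had a window, and Mmp2 and Mmp9 had none. A match or its absence says nothing here about binding.

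Among the proteases, the gelatinase Mmp2 was the member most clearly measured, and it did not differ between the groups past the threshold. Mmp2 had 37.5, 61.7, 94.7, 121, 143 and 68.5 CPM in Pdpn-adjacent regions 2, 3, 4, 7, 8 and 11, against 162, 101, 119, 117 and 160 CPM in SMA-adjacent regions 1, 5, 6, 9 and 10. The 3 shallow regions were the lowest of the 11, and regions 7 and 8 lay among the SMA-adjacent ones. Its log2 fold change was -0.34 ± 0.25 SE (adjusted p = 0.952 by edgeR), and -0.17 ± 0.26 SE without regions 2, 3 and 11. Its mean was 120 ± 24.1 CPM over the 3 deep Pdpn-adjacent regions (SD, n = 3), beside 132 ± 27.5 CPM over the SMA-adjacent ones (SD, n = 5).

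Mmp14, the membrane protease that activates the MMP2 precursor, did not differ between the groups past the threshold. It had 37.5, 74.1, 57.2, 65.2, 56.5 and 34.3 CPM in Pdpn-adjacent regions 2, 3, 4, 7, 8 and 11, against 72.5, 42.4, 46.2, 52.5 and 67.3 CPM in SMA-adjacent regions 1, 5, 6, 9 and 10. The ranges overlapped widely, and the value in region 10 was the sole one above the floor. The log2 fold change was 0.11 ± 0.18 SE (adjusted p = 1.00 by edgeR), and its sign turned under limma-voom (-0.046) and with DESeq2 without regions 3 and 7 (-0.013). Mmp3, stromelysin 1, which cuts proteoglycans and activates other MMPs, spanned 34.3 to 98.8 CPM in the Pdpn-adjacent group and 57.6 to 87.0 CPM in the SMA-adjacent group, with a log2 fold change of -0.13 ± 0.18 SE (adjusted p = 1.00 by edgeR). Its highest value, in region 3, rested on 8 counts.

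Mmp9, Mmp11 and Mmp23 lay at the level of the negative probes. Mmp9, the second gelatinase, known mainly from neutrophils and macrophages, had 28.9 ± 0.983 CPM in the 3 deep Pdpn-adjacent regions (SD, n = 3) and 39.5 ± 8.37 CPM in the SMA-adjacent group (SD, n = 5). The 3 deep regions lay below each SMA-adjacent one, as for 2.02% of all probes tested, while 2.39% had them above. Region 11 had the highest Mmp9 of all, 68.5 CPM, from 2 counts. Mmp23, a membrane-bound MMP whose activation does not follow the usual cysteine switch, had 20.2, 14.0 and 23.3 CPM in Pdpn-adjacent regions 4, 7 and 8, against 22.4 to 48.8 CPM in the SMA-adjacent regions. The log2 fold changes were -0.44 ± 0.18 SE for Mmp9 and -0.73 ± 0.21 SE for Mmp23 (adjusted p = 0.761 and 0.403 by edgeR), and limma-voom gave -0.15 and -0.25. Mmp11, stromelysin 3, a stromal protease of remodelling tissue, had 0.09 ± 0.24 SE (adjusted p = 1.00 by edgeR) at medians of 1.04 times background in both groups, and its sign turned without SMA-adjacent region 5 (-0.036). How far background enters the differences of these 3 genes was not tested. All p-values on the proteases are too small, because regions share mice.

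**Figure D2:**
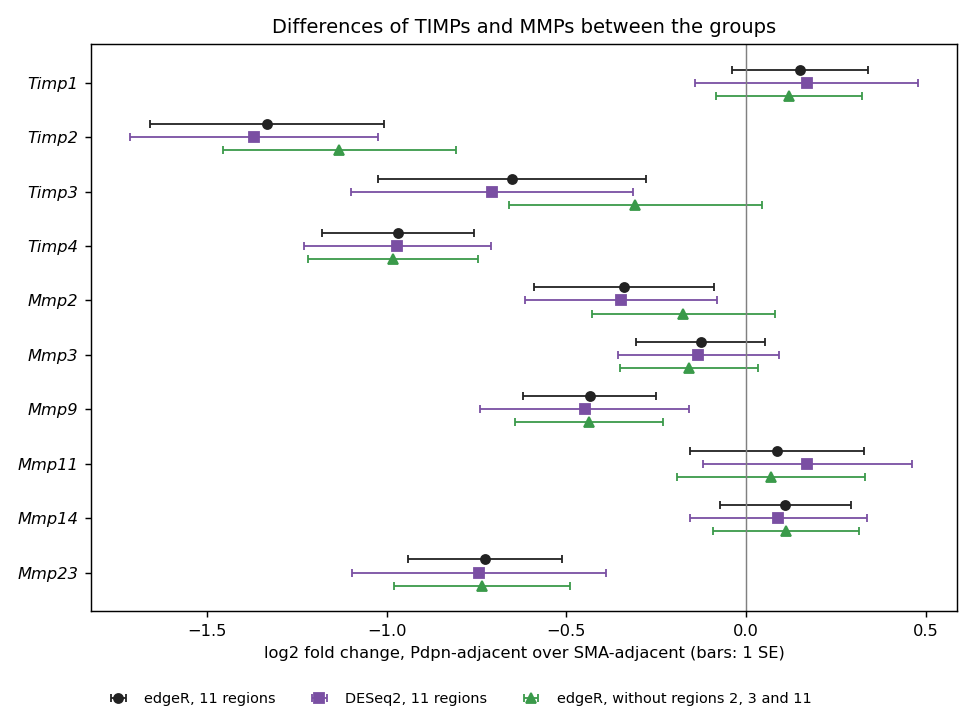
Log2 fold change of each member, Pdpn-adjacent over SMA-adjacent (horizontal axis, bars 1 SE), from edgeR and DESeq2 on 11 regions and from edgeR without the shallow regions 2, 3 and 11. Without those regions Timp2 has -1.13 and Timp4 -0.98, neither with background subtracted, while Timp3 has -0.31 without them and -0.65 with them.

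As families, the 4 TIMPs had a median log2 fold change of -0.81 and the 6 MMPs one of -0.23, beside 0.01 over all probes tested. Of the TIMPs, 3 had a negative value and 1 a positive one, and of the MMPs 4 and 2, or 5 and 1 under limma-voom, where Mmp14 turned. Without regions 2, 3 and 11 the medians were -0.65 for the TIMPs and -0.17 for the MMPs. With background subtracted, where Timp1, Mmp9, Mmp11 and Mmp23 gave no value, they were -1.56 and -0.26. The families were chosen with results of these samples known, so the medians are a description.

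Ratios within a region do not depend on library scaling, and they set the inhibitor beside the proteases it is known to bind. The Timp2 count was 0.791, 0.731 and 0.674 times the Mmp2 count in Pdpn-adjacent regions 4, 7 and 8, and 1.00, 0.200 and 1.00 times in the shallow regions 2, 3 and 11. It was 1.28, 1.02, 1.18, 1.79 and 1.70 times in SMA-adjacent regions 1, 5, 6, 9 and 10. Timp2 counts thus lay at or under those of Mmp2 in every Pdpn-adjacent region and over them in every SMA-adjacent one. The margin was narrow. Region 5 had 333 Timp2 and 328 Mmp2 counts, and in regions 2 and 11 the counts were tied at 1 and at 2. Of the other probes tested, 0.0351% had a ratio to Mmp2 with every Pdpn-adjacent region below every SMA-adjacent one, and 0.196% did so with the 3 deep Pdpn-adjacent regions alone. In region 2, Mmp2 and 90.0% of endogenous probes stood at 1, which fixes the ratio at 1. Such a probe separates the groups only if its count exceeds that of Mmp2 in every SMA-adjacent region. Mmp2 had a higher mean CPM than 96.8% of probes, so level alone bars most probes. The share over all regions is thus no measure of how rare the Timp2 separation is.

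Of the 5 ratios computed, that of Timp2 to Mmp14 was the other that separated the groups. It was 1.31, 1.36 and 1.71 in Pdpn-adjacent regions 4, 7 and 8 and 1.00, 0.167 and 2.00 in regions 2, 3 and 11, against 2.85, 2.41, 3.05, 4.01 and 4.04 in SMA-adjacent regions 1, 5, 6, 9 and 10. Here 0.321% of probes separated the groups in this way over all regions and 1.60% over the deep ones. The first share is limited by level in the same way, because Mmp14 too stood at 1 in region 2. Timp3 over Mmp2 overlapped, at 1.23 to 2.21 in regions 4, 7 and 8 and 1.41 to 3.12 in the SMA-adjacent regions. Timp2 over Timp3 overlapped as well, at 0.167 to 1.00 in Pdpn-adjacent regions and 0.575 to 0.908 in SMA-adjacent ones. So did Timp4 over Mmp3, at 0.625 to 1.00 in the Pdpn-adjacent group and 0.985 to 1.80 in the SMA-adjacent group. The values of regions 2 and 11 rest on 1 or 2 counts. Mmp14 was above the floor in 1 of 11 regions, and Timp2 in 2 of 6 Pdpn-adjacent ones. The ratio of Timp2 to Mmp14 thus sets Timp2 largely beside background, and it is not independent of the Timp2 levels given above. Counts of different probes are not molecules on a common scale, so the ratios compare regions and say nothing of which protein was in excess.

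**Figure D3:**
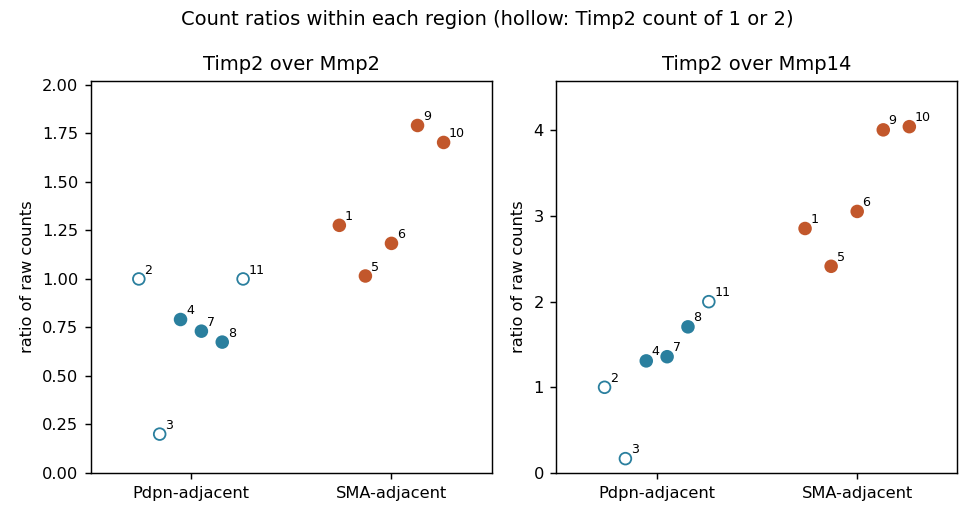
Ratio of the raw Timp2 count to the raw Mmp2 count (left) and Mmp14 count (right) in each numbered region, by group. Hollow points rest on 1 or 2 Timp2 counts. The 6 Pdpn-adjacent regions lie at or under 1.00 on the left and at or under 2.00 on the right, below every SMA-adjacent region. On the left the closest values of the groups are 1.00 and 1.02.

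Probes whose levels followed those of the better measured members most closely were sought over the 8 regions above 100000 counts, by the root-mean-square difference of log2 CPM centred on each gene's mean. For Timp2, itself 0.64 around its mean by this measure, these were Cpe, carboxypeptidase E (0.17), Ptprb, a phosphatase of blood vessel endothelium (0.18), and Pgm5, a protein of muscle adhesion sites (0.20). Among the members, Timp4 was nearest to Timp2, at rank 62 of all probes (0.33). Mmp23 followed at rank 259, Mmp9 at 294, Timp3 at 532, Mmp2 at 996, Mmp3 at 2136 and Mmp14 at 4295, and Timp1 (9338) and Mmp11 (10019) were furthest. For Timp4 the nearest were the complement gene C7 (0.17), Mroh1 (0.20) and Hrg (0.21), but Timp4 was above the floor in 0 Pdpn-adjacent regions, so there the likeness is one between values at background level. For Timp3 they were Pfn1, the actin-binding profilin (0.10), Nrbp2 (0.12) and Thbs1, a thrombospondin that itself binds MMPs (0.12). For Mmp2 they were Gja6 (0.09), Tgfbr2, a receptor of transforming growth factor beta (0.10), and Nhej1 (0.10). Mmp2 itself varied little, at 0.26 around its mean, so probes of even level also come out near it. Gja6 had means of 35.9 CPM in the Pdpn-adjacent and 35.7 CPM in the SMA-adjacent group, and Nhej1 42.4 and 44.0 CPM. How far background enters these likenesses was not tested. The 8 regions hold both groups, so likeness includes sharing the group difference.

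No gene of the protease system, members included, was called by edgeR. Of the 15 other MMPs 0 were called by edgeR, 0 were above the floor in 4 regions, and their median log2 fold change was -0.04. Mmp15, a membrane MMP, had 49.7 ± 22.4 CPM in the Pdpn-adjacent group (SD, n = 6), 32.5 ± 4.14 CPM in the SMA-adjacent group (SD, n = 5) and a log2 fold change of 0.71 ± 0.18 SE (adjusted p = 0.205 by edgeR), and Mmp21 had -0.28 ± 0.18 SE. Of 12 regulators of MMPs outside the TIMP family 0 were called (median -0.16). Lcn2, lipocalin 2, which binds MMP9, had 0.78 ± 0.20 SE (adjusted p = 0.205 by edgeR), and Lrp1, a receptor that clears MMPs and TIMPs, -0.46 ± 0.25 SE. Lrp1 was above the floor in 6 regions and Lcn2 in 0. Lcn2 had medians of 1.04 times background in the Pdpn-adjacent group and 0.94 times in the SMA-adjacent group, so its fold compares values at background level.

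Of 16 ADAM and ADAMTS proteases 0 were called (median -0.04), with Adamts8 at -0.36 ± 0.21 SE and the procollagen protease Adamts2 at -0.31 ± 0.22 SE. Adamts2 was above the floor in 7 regions and Adamts8 in 0, and 8 of these 16 genes were above it in at least 4. Of 8 genes of the plasminogen system 0 were called (median -0.03), with plasminogen itself (Plg) at 0.38 ± 0.16 SE and Serpinb2 at 0.23 ± 0.16 SE. Plg was above the floor in 1 region and Serpinb2 in 0. The p-values of these lists too are made small by shared mice.

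The known substrates of these proteases had the lowest median of the protease lists, and all 12 had a negative log2 fold change (median -1.02). By edgeR 0 of the 12 were called, and by DESeq2 1 of the 11 with an adjusted p was lower, Bgn. Bgn, the proteoglycan biglycan, had 78.9 ± 38.6 CPM in the Pdpn-adjacent group (SD, n = 6) and 224 ± 88.2 CPM in the SMA-adjacent group (SD, n = 5). Its log2 fold change was -1.29 ± 0.34 SE (adjusted p = 0.237 by edgeR and 0.0493 by DESeq2). Fn1, fibronectin, had -0.94 ± 0.27 SE (adjusted p = 0.398 by edgeR). Because mice are shared, these p-values are too small as well.

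Markers of smooth muscle, fibroblasts and blood endothelium had lower median sums in Pdpn-adjacent regions. So had those of adipocytes, macrophages and lymphatic endothelium, while luminal, basal, neutrophil and fast skeletal muscle markers had higher ones. By edgeR 0 genes of the lists with lower medians were called. Of the genes with an adjusted p, DESeq2 called 4 of 8 smooth muscle and pericyte genes lower, 1 of 3 blood endothelial genes and 0 of 7 fibroblast genes. Over all probes with an adjusted p it called 0.547% lower. The summed level of 10 smooth muscle and pericyte genes was 450 to 1420 CPM in the Pdpn-adjacent group and 1409 to 6153 CPM in the SMA-adjacent group. Of the 10, 5 had every Pdpn-adjacent region below every SMA-adjacent one, beside 0.391% of all probes tested. In contrast 2, Des (0.60 ± 0.39 SE) and Rgs5 (0.13 ± 0.25 SE), had a positive log2 fold change. Without Acta2, whose protein was stained to choose regions, the other 9 summed to 413 to 1099 CPM in the Pdpn-adjacent group and 966 to 3544 CPM in the SMA-adjacent group. Of these 9, 4 did not overlap, and DESeq2 called 3 of the 7 with an adjusted p. The sum of 6 blood endothelial genes was 225 to 502 CPM in the Pdpn-adjacent group and 409 to 798 CPM in the SMA-adjacent group. That of 8 fibroblast genes was 300 to 1694 CPM in Pdpn-adjacent regions, against 1320 to 3198 CPM in the SMA-adjacent ones. Without Postn it was 263 to 1588 CPM in the Pdpn-adjacent group and 1248 to 3107 CPM in the SMA-adjacent group. The low ends of the fibroblast and blood endothelial sums came from region 2, where every gene of both lists stood at 1. The low end of the smooth muscle and pericyte sum came from region 2 too, with 8 of the 10 genes at 1. The 7 lymphatic endothelial genes summed to 222 to 330 CPM in the Pdpn-adjacent group and 317 to 356 CPM in the SMA-adjacent group, with 0 of them above the floor in 4 regions. Without Pdpn these sums were 209.8 to 277.5 CPM in Pdpn-adjacent regions, against 260.2 to 309.6 CPM in SMA-adjacent ones. The part of these cells in the Timp2 and Timp4 differences was not tested, and fewer cells of a type cannot be told apart from less RNA per cell.

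**Figure D4:**
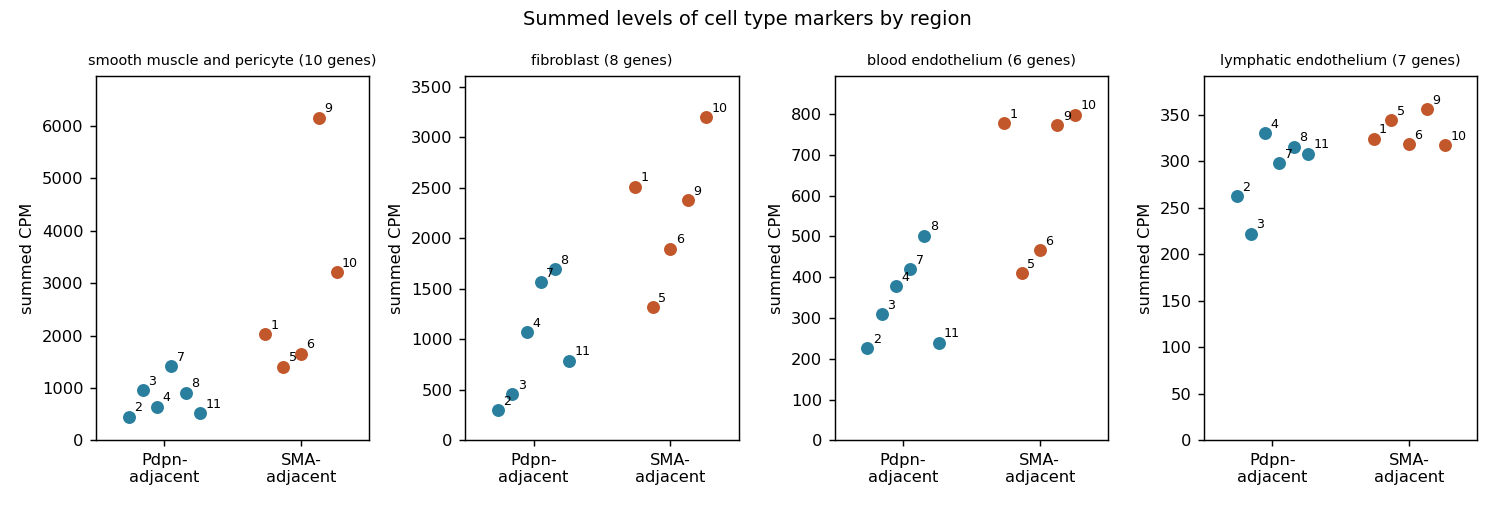
Summed CPM of 4 marker lists, with Acta2, Postn and Pdpn included (vertical axes, from 0) in each numbered region, by group. The smooth muscle, fibroblast and blood endothelial sums are lower in most Pdpn-adjacent regions than in SMA-adjacent ones, and the lymphatic sum is low throughout.

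The sums of the remaining lists overlapped between the groups too. Those of 7 macrophage genes were 263 to 535 CPM in the Pdpn-adjacent group and 484 to 666 CPM in the SMA-adjacent group. Those of 6 genes of neutrophils, a usual source of Mmp9, were 256 to 346 CPM in Pdpn-adjacent regions, against 238 to 277 CPM in SMA-adjacent ones. Adipocyte genes (6) summed to 225 to 7343 CPM in the Pdpn-adjacent group and 3749 to 8758 CPM in the SMA-adjacent group. The low ends of the macrophage and adipocyte sums came from region 2, where every gene of both lists stood at 1. Luminal epithelial genes (10) summed to 445 to 931 CPM in Pdpn-adjacent regions, against 397 to 531 CPM in SMA-adjacent ones. All 10 luminal genes had a positive log2 fold change (median 0.78), the opposite sign to Timp2 and Timp4. Of the 10, 2 were above the floor in at least 4 regions. The highest sums were those of regions 4 (931 CPM) and 8 (794 CPM), and the other Pdpn-adjacent regions had 445 to 555 CPM. The milk casein gene Csn3 was the 1 called higher by edgeR (0.98 ± 0.17 SE, adjusted p = 0.0413, too small for shared mice). It had 59.6 ± 22.1 CPM in Pdpn-adjacent (SD, n = 6) and 34.2 ± 4.15 CPM in SMA-adjacent regions (SD, n = 5). Csn3 was above the floor in 2 of 11 regions, at medians of 1.91 and 1.12 times background, and DESeq2 gave it no adjusted p. The part of luminal cells in the results on the members was not tested. Basal epithelial genes (5) summed to 185 to 891 CPM in the Pdpn-adjacent group and 192 to 237 CPM in the SMA-adjacent group. The 8 genes of fast skeletal muscle reached 24021 CPM in region 3 and 10645 CPM in region 7, against 286 to 1764 CPM in the other Pdpn-adjacent and 275 to 3179 CPM in the SMA-adjacent regions. Without regions 3 and 7 Timp2 had a log2 fold change of -1.23 ± 0.36 SE and Timp4 -1.0 ± 0.24 SE, within 1 SE of the values with all regions. Neither was called then: the adjusted p by edgeR was 0.409 for Timp2 and 0.221 for Timp4, and by DESeq2 0.0634 for Timp2 and not given for Timp4. These p-values are too small, since mice are shared.

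The probes lie on GRCm38.p6, each within the span of its gene in the RefSeq table. Those of the members the results turn on are at chromosome 11, 118317483 to 118317518 (Timp2), chromosome 6, 115249895 to 115249934 (Timp4), chromosome 10, 86338415 to 86338450 (Timp3), chromosome 8, 92831722 to 92831763 (Mmp2), and chromosome 14, 54436157 to 54436194 (Mmp14).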

How the data were processed

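The authors deposited a table of raw counts, 1 row a probe and 1 column a region. It holds whole numbers whose totals differ between columns, so no normalization had been applied. Regions were profiled with the NanoString mouse Whole Transcriptome Atlas probes on the GeoMx platform, per the labels' protocols, and the probe coordinates refer to GRCm38.p6 (per the file headers). The labels count 12 collected areas, of which 11 were analysed here. Neither the steps from reads to counts nor a reason for the lowest value of 1 was given in the sources used here. All 10 members were kept by filterByExpr of edgeR 4.0.16, as were 19935 of 19965 endogenous probes. The 210 negative-control probes, between 0.610% and 0.979% of a region's counts, entered neither library sizes nor tests. TMM-scaled counts were tested in R 4.3.3 with edgeR's quasi-likelihood test, Pdpn-adjacent over SMA-adjacent, with Benjamini-Hochberg adjustment over all probes and a threshold of 0.05, and the SE is the one implied by its p. Alternatives used DESeq2 1.42.0, limma-voom 3.58.1, other scalings and filters, and fewer regions. The DESeq2 fits with regions left out were chosen after seeing the data. The exact permutation test used log2 CPM with a prior count of 2 and took 2 times the smaller tail. The tests were tested on simulated data. The members and gene lists were chosen with earlier results of these data known. Named beside the members were the 2 genes of smallest p in each protease list, genes called, and the 3 probes most like each member above the floor in at least 4 regions. Of marker lists the sums are given, and the sums without label genes, Csn3, Des and Rgs5 were added after values were seen. The ratios were chosen after values were seen.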

Additional observations from a re-analysis of the deposited data

Results flagged for a closer look

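In SMA-adjacent region 5 the level of Mmp11 lay far below the other SMA-adjacent regions, at 4.61 on the log2 CPM scale (22.7 CPM, 74 counts), with a gap of 0.725 of the group's range against a critical value of 0.71. It was flagged as a sample far from the rest of its group, as the sole case among 20 combinations of member and group, and chance flags about 1 in 20. Mmp11 lay near background there and elsewhere.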

How the results depend on the processing

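Over 331 fold changes of members under alternatives, 316 kept their direction without passing the threshold, 12 (Timp2 and Timp4) passed it, and 3 turned sign. Those were Mmp11 without SMA-adjacent region 5 (-0.036, the lowest of fits with a region left out, which reached 0.48), and Mmp14 with limma-voom (-0.046) and with DESeq2 without regions 3 and 7 (-0.013). The 316 include DESeq2 fits that gave no adjusted p and so have no side of the threshold. Among the 11 DESeq2 fits with a region left out, these were 9 for each of Timp1, Mmp9, Mmp11 and Mmp23. In the permutation test Mmp14 turned to 0.11 without regions 2, 3 and 11. Members called numbered 2 with DESeq2, 1 with DESeq2 without regions 2, 3 and 11, 0 with DESeq2 without regions 3 and 7, and 0 to 2 in fits that left out each region in turn with edgeR or DESeq2. Probes called over the whole table, 2 with edgeR, numbered 17 with DESeq2, 17 with DESeq2 without regions 2, 3 and 11, 14 with DESeq2 without regions 3 and 7, 14 with edgeR without regions 3 and 7, 1 without regions 2, 3 and 11, 8 with a robust fit, 1 with negative-probe scaling, 1 over probes above the floor in 2 regions, 0 with limma-voom and 0 after background subtraction in regions above 100000 counts. Leaving out each region gave 1 to 53, the highest without SMA-adjacent region 5, and 13 with edgeR without region 7. The cause was not tested. With DESeq2, Timp2 was called in 6 of 11 such fits and Timp4 in 1. After background subtraction the fold changes of Timp4 and Timp2 and the median of the TIMPs were larger, as given above. limma-voom moved the median of all probes to 0.14, against 0.01 with edgeR. With a floor of 3 SD, Timp2 was above it in 4 regions, Timp4 in 2, Mmp2 in 5 and Timp3 in 8. No paired analysis was possible because the groups share no region number and the labels give no mouse.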
